A study of Arabidopsis thaliana with 4 samples.

Results

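Serine carboxypeptidase-like (SCPL) genes were followed in inflorescences of the Arabidopsis thaliana floral mutant apetala3, set directly against wild-type inflorescences. The family was taken from the platform annotation: a gene entered when a probe named it alone, its reference symbol was SCPL (in either case) and a number, and it was measured on at least 3 of the 4 arrays. This gave 10 genes, measured by 11 probes, among 5303 genes with a reference symbol or locus and 25588 genes and unnamed probes tested in all. Of the 49 genes that carry an SCPL symbol in the RefSeq gene table, a further 20 were listed only on probes that name several SCPL genes, and 19 were on no listed probe. The coverage fell on the higher-numbered genes, with 29 of 31 genes numbered above 19 listed on some probe, against 1 of 18 genes numbered 19 or lower.

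Each of the 4 long-oligonucleotide arrays carried total RNA of both genotypes. The mutant RNA was in channel 1 on arrays 1 and 3, and in channel 2 on arrays 2 and 4. The MADS-box factor APETALA3 acts with PISTILLATA to specify petals and stamens, and loss-of-function flowers form sepals and carpels in their places. The sources used here give no apetala3 allele, accession or plant age. They also do not tell whether separate plants or extracts were used for each array, so the p-values reflect variation between arrays that could be technical alone.

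Values are given as log2(apetala3/wild type). Which channel was the numerator of the deposited ratios is not in the labels. The direction is called likely. Its basis is that apetala3 flowers lack stamens and that, with this direction, 5 of the 6 measured genes of a list of 9 tapetum and anther genes were lower in the mutant, with a median of -2.93. The lower values of that list are therefore no separate result, and with the sign turned every "higher" below would read "lower". Probes naming AP3 or PI numbered 0, so the genotype labels were not checked against the targeted gene. The pollen tubulin TUA1 was at -0.44 ± 0.11 (SE, n = 4 arrays) and the nectary transporter SWEET9 at -4.79 ± 0.25. Of the 2 measured genes of a carpel list, HAF was at 1.85 ± 0.14 and INO, an ovule regulator, at 0.20 ± 0.11 (limma adjusted p = 0.243). The 3 photosystem genes PSBW, PSBY and PSAN were at 0.39 ± 0.20, 0.35 ± 0.23 and 0.30 ± 0.15 (limma adjusted p = 0.216, 0.303 and 0.209). PSBW and PSBY were below 0 on arrays 1 and 3 and above it on arrays 2 and 4. For PSAN the means of these pairs of arrays were 0.58 and 0.02. The ratios hold no level for either genotype, and having 4 arrays limits how precise each value is.

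SCPL proteins share the alpha/beta-hydrolase fold and a catalytic triad of serine, aspartate and histidine with the secreted and vacuolar carboxypeptidases, which remove single amino acids from the C-terminal ends of proteins and peptides. Several plant members have lost that activity and work as acyltransferases, moving an acyl group from a glucose ester to another acceptor. SNG1 (SCPL8) makes sinapoylmalate and SCPL19 (SNG2) makes sinapoylcholine in this way, and BRS1 (SCPL24) was found as a suppressor of a weak brassinosteroid receptor mutant. For most of the genes described here no individual role is stated.

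Within the family, scpl38 and SCPL49 fell in apetala3 and SCPL43 rose, while the other 7 genes did not pass the test. Transcripts of scpl38 were reduced about 12.8-fold and those of SCPL49 about 2.09-fold, and those of SCPL43 were 2.01-fold higher. The test was limma's moderated test of the mean ratio against 0, with Benjamini-Hochberg adjustment over all 25588 genes and probes and a threshold of 0.05. It called 3 of 10 members, against 18.5% of all genes and probes and 17.5% of the named genes. By direction, 1 of 10 was higher, against 8.43% of all genes and probes and 9.09% of named genes, and 2 of 10 were lower, against 10.1% and 8.41%. The background rests on the arrays used: 4737 calls were made in all, against 1818, 2085, 2793 and 5028 without arrays 1, 2, 3 and 4. In each of these fits 3 of the 10 members were called, so the comparison with the background share also depends on the arrays. The counts of the 10 genes are small and, in the main fit, do not set these genes apart from the background. Probes listing several SCPL genes are left out of these counts and described below. Of those 16 probes, 7 were lower and 1 was higher, against 11.2% and 8.26% of all probes listing several genes. The median of the 10 means was 0.09, beside 0.11 over all genes and probes and 0.14 over named genes.

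**Figure D1:**
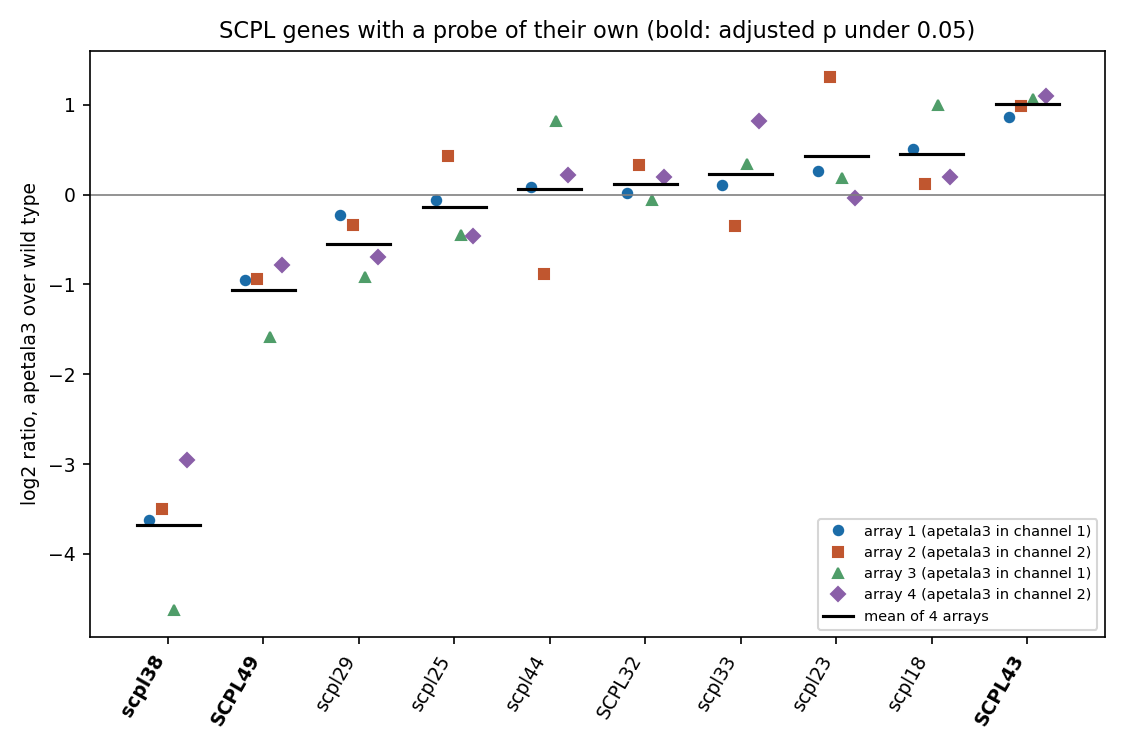
Log2 ratio of apetala3 over wild type for the 10 SCPL genes with a probe of their own (vertical axis), each point being 1 array and each black line the mean of 4 arrays, ordered by the mean. The points of scpl38 lie between -4.63 and -2.95 and those of SCPL43 between 0.87 and 1.10, while scpl44, scpl25, SCPL32, scpl33 and scpl23 have points on both sides of 0.

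The gene scpl38 (AT2G05850) had log2 ratios of -3.63, -3.50, -4.63 and -2.95 on arrays 1 to 4. All 4 arrays put it far below 0, with array 3 lowest and array 4 highest. Its mean was -3.68 ± 0.27 (SE, n = 4 arrays, limma adjusted p = 0.00108), so that the apetala3 level was 7.82% of the wild-type level. The 95% interval of the reduction ran from 8.02-fold to 20.4-fold. Of the 5303 named genes, 34 had a lower mean. Ratios at the 100-fold limit were left out, so genes with larger changes can be missing from this and the other ranks and shares. A called decrease of at least 8-fold was found for 1.34% of named genes, and among the 10 SCPL genes for scpl38 alone. The SD across arrays was 0.70, larger than that of 91.1% of genes and probes. Leaving out 1 array at a time moved the mean between -3.92 and -3.36, and the call was kept each time.

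In inflorescence RNA, fewer cells of a type and less RNA per cell cannot be told apart. The tapetum and anther list ranged from -4.10 for ATA27 to 0.07 for EMS1, with SWEET8 at -3.97, SHT at -3.11, ATA20 at -2.76 and SPL at -0.49. That range was wide, with 17 named genes below ATA27 and 2233 below EMS1. SCPL49, scpl29, scpl25 and scpl44 lay within it as scpl38 did. The list also set the direction, so the place of scpl38 within its range is no separate result. The part that the loss of floral organs plays in the scpl38 ratio was not tested.

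SCPL49 (AT3G10410), which the RefSeq table also calls CARBOXYPEPTIDASE Y after the vacuolar enzyme of yeast, had log2 ratios of -0.95, -0.94, -1.58 and -0.78. Arrays 1, 2 and 4 lay close together and array 3 was lower. The mean was -1.06 ± 0.16 (SE, n = 4 arrays, limma adjusted p = 0.0103), which places the apetala3 level at 47.8% of the wild-type level, with a 95% interval of the reduction from 1.60-fold to 2.74-fold. Without array 3 the mean was -0.89. The call was lost when the variance was not moderated across genes (adjusted p = 0.0783). SCPL49 and scpl38 were the 2 of 10 members called at least 2-fold lower, against 5.53% of named genes.

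SCPL43 (AT2G12480) was the family member that rose, with log2 ratios of 0.87, 0.99, 1.07 and 1.10. The 4 arrays nearly coincided: the SD was 0.10, and 8.75% of all genes and probes had a smaller one. The mean was 1.01 ± 0.09 (SE, n = 4 arrays, limma adjusted p = 0.00224), and 91 named genes had a higher mean. The 95% interval ran from 1.70-fold to 2.36-fold higher, and a called increase of at least 2-fold was found for 1.09% of named genes. SCPL43 barely reached 2-fold. Its mean log2 ratio was 0.90 with each array centred on its median and 0.97 with array weights. Without array 3 it was 0.98 and without array 4 0.97, against 1.05 without array 1 and 1.01 without array 2. Empty spots, which carry no probe, had medians of 0.76, 0.56, -0.27 and 0.84 on arrays 1 to 4. The spots spread widely, and the share of measured empty spots with a ratio above that of SCPL43 was 41.8%, 26.5%, 3.28% and 40.1% on arrays 1 to 4. The part that background signal plays in the SCPL43 ratio was not tested.

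**Figure D2:**
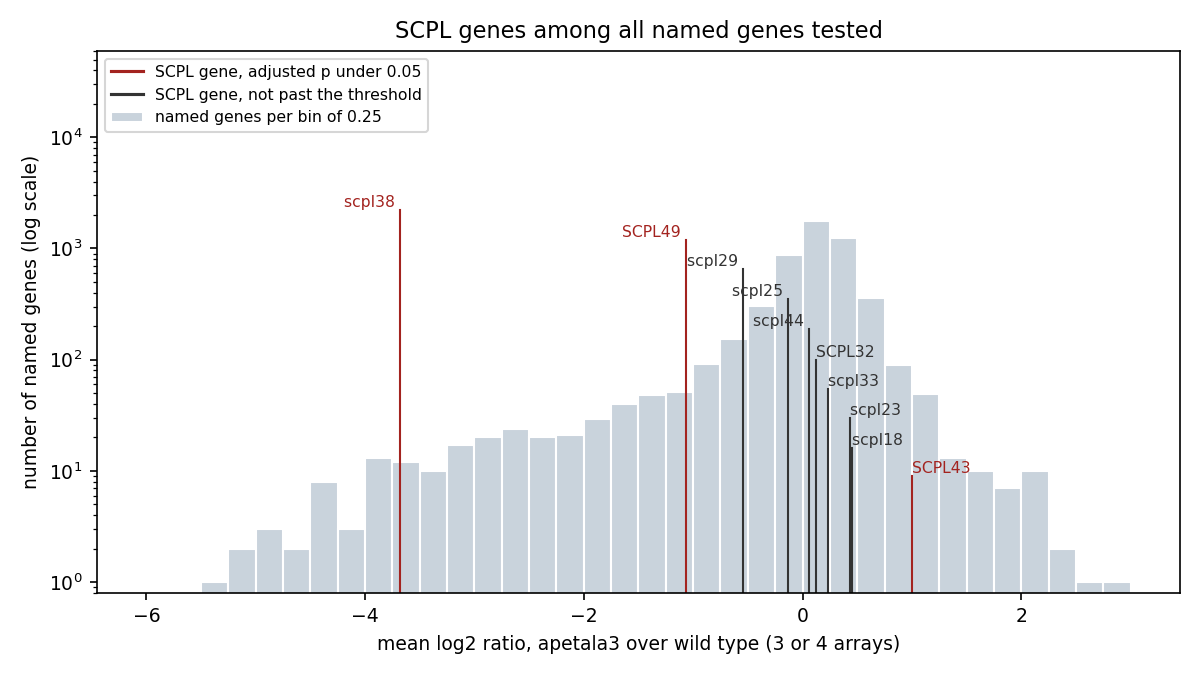
Number of named genes (vertical axis, log scale) by mean log2 ratio of apetala3 over wild type (horizontal axis, bins of 0.25), with each SCPL gene drawn as a vertical line at its mean, red where the adjusted p was under 0.05. The line heights only separate the names. scpl38 at -3.68 stands in the long lower tail, SCPL49 at -1.06 on its shoulder and SCPL43 at 1.01 in the upper tail.

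The remaining 7 genes had means between -0.55 and 0.46. The nearest to the threshold was scpl29 (AT4G30810), the member with 2 probes. Averaged over its probes it had log2 ratios of -0.22, -0.34, -0.92 and -0.70. All were below 0, and arrays 3 and 4 were lower than arrays 1 and 2. The mean was -0.55 ± 0.15 (SE, n = 4 arrays, limma adjusted p = 0.0554). The 2 probes gave nearly the same mean when fitted alone, at -0.57 and -0.53, with limma adjusted p of 0.0618 and 0.0567. Their per-array difference was -0.04 ± 0.19 (SD, n = 4 arrays). With each array centred on its median the gene was called (limma adjusted p = 0.0365).

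The gene scpl18 (AT1G33540) is the member numbered below 20, and was the other uncalled gene with the same sign on all arrays. Its log2 ratios were 0.50, 0.12, 1.004 and 0.20. Both arrays with the mutant in channel 1 exceeded both arrays with it in channel 2, with means of 0.75 and 0.16. Its mean over all arrays was 0.46 ± 0.17 (SE, n = 4 arrays, limma adjusted p = 0.118).

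The other 5 genes were on both sides of 0. For scpl23 (AT2G24010), the values were 0.26, 1.31, 0.18 and -0.03, with a mean of 0.43 ± 0.24 (SE) that array 2 raised. Without array 2 it was 0.14. Its 95% interval, from -0.16 to 1.02, still held a doubling. In the RefSeq order of protein-coding genes scpl23 directly follows scpl22, which was on no listed probe, and it is the 1 of 10 members that lies beside another SCPL gene. For scpl44 (AT1G43780), the values were 0.08, -0.89, 0.82 and 0.22, the widest spread in the family at an SD of 0.71, with a mean of 0.06 ± 0.27 (SE). Arrays 2 and 3 disagreed in sign, and the mean ran from -0.20 to 0.37 when 1 array was left out.

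For scpl33 (AT3G17180), the values were 0.11, -0.35, 0.35 and 0.82, with a mean of 0.23 ± 0.20 (SE). For scpl25 (AT3G02110), they were -0.05, 0.43, -0.45 and -0.45, with a mean of -0.13 ± 0.18 (SE). For SCPL32 (AT1G61130), they were 0.02, 0.33, -0.06 and 0.20, with a mean of 0.12 ± 0.11 (SE). In each of these, array 2 or array 3 lay on the other side of 0 from most arrays, and limma's adjusted p over all genes and probes was 0.437 for scpl33, 0.618 for scpl25 and 0.440 for SCPL32. The 95% intervals of the 7 uncalled genes together spanned 1.88-fold lower to 2.03-fold higher, so changes up to about that size remain possible for some of them. Spread was larger in the family than usual, with a median SD of 0.41, beside 0.25 over named genes.

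The 2 channel orientations were compared for each member. The mean of arrays 1 and 3 and the mean of arrays 2 and 4 were -4.13 and -3.23 for scpl38, -1.27 and -0.86 for SCPL49, and 0.97 and 1.04 for SCPL43. Each called gene thus kept its direction in both orientations. For scpl44 the orientations had opposite signs, at 0.45 and -0.34. A test of the difference between orientations, fitted across all genes and probes with limma, gave no member an adjusted p below 0.735. It sets 2 arrays against 2, so it does not show that the orientations were alike.

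**Figure D3:**
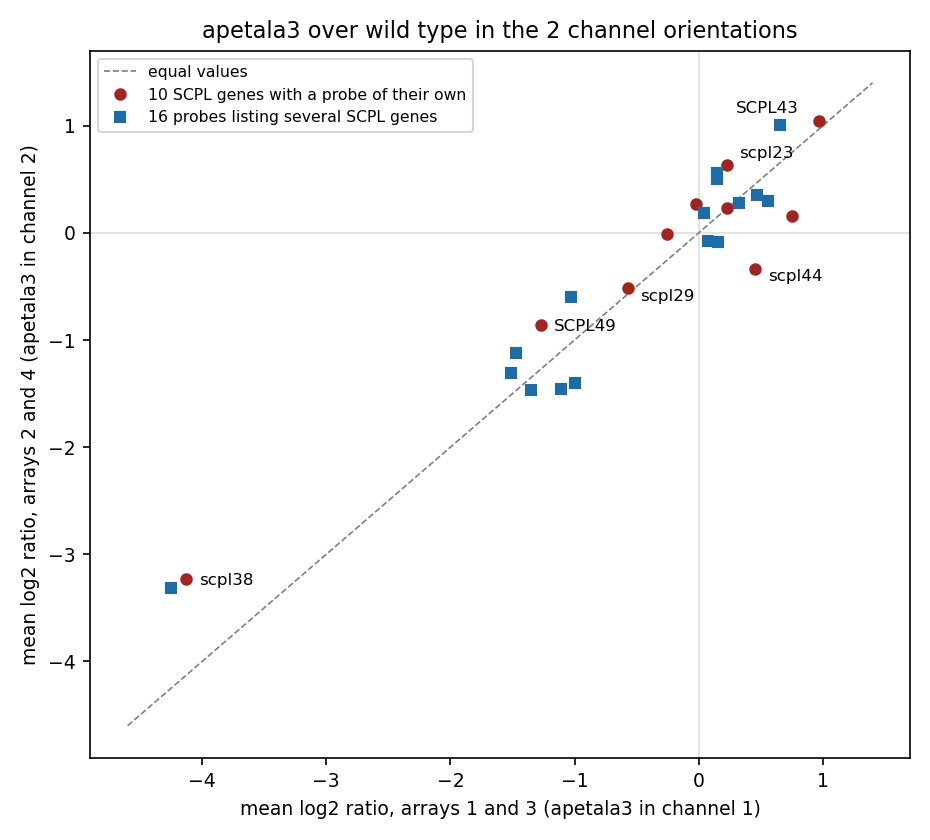
Mean log2 ratio of apetala3 over wild type on arrays 2 and 4 (vertical axis) against that on arrays 1 and 3 (horizontal axis), for the 10 SCPL genes with a probe of their own (circles) and the 16 probes that list several SCPL genes (squares). The dashed line marks equal values, and scpl38 at -4.13 and -3.23 and the probe beside it lie above that line.

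A further 16 probes each listed several genes, all with SCPL symbols. Such a probe cannot say which of its genes gave the signal, and no gene is named as changed from one. They covered 26 genes, among them 6 of the 10 members. Of the 16 probes, 7 were lower and 1 was higher at the threshold, against 11.2% lower and 8.26% higher among all probes listing several genes. In place of these 8 calls, 4 were made without array 1 and 4 without array 2. Probes that list the same genes are not independent of each other. Their median was 0.02, beside 0.10 over all probes listing several genes.

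**Figure D4:**
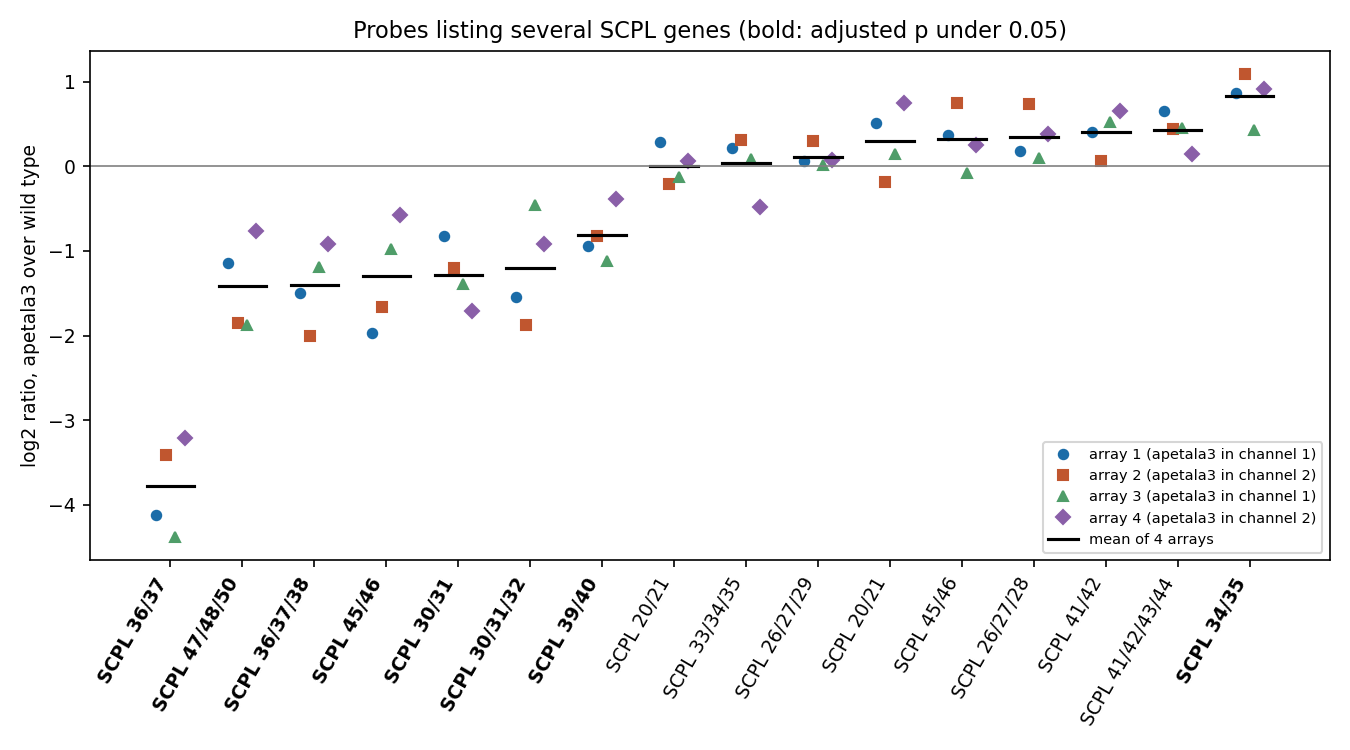
Log2 ratio of apetala3 over wild type for the 16 probes listing several SCPL genes, named on the horizontal axis by the numbers of the genes they list, with 1 point per array and the mean as a black line. The probe of genes 36 and 37 lies between -4.38 and -3.21, apart from the 6 other called decreases, whose means lie between -1.41 and -0.81.

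The largest of these decreases was on the probe listing scpl36 and scpl37, 2 genes that are adjacent in the RefSeq gene order and are followed there by scpl39. It had log2 ratios of -4.12, -3.41, -4.38 and -3.21. All 4 arrays were low, and arrays 1 and 3 were lower than arrays 2 and 4. The mean was -3.78 ± 0.22 (SE, n = 4 arrays, limma adjusted p = 0.000670), a 13.8-fold reduction. It differed from the scpl38 probe by little on each array, with scpl38 minus this probe ranging from -0.25 to 0.50 and averaging 0.10 ± 0.34 (SD, n = 4 arrays).

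The probe listing all of scpl36, scpl37 and scpl38 fell much less. Its log2 ratios were -1.50, -2.01, -1.19 and -0.92, and the mean was -1.41 ± 0.19 (SE, n = 4 arrays, limma adjusted p = 0.00788). The scpl38 probe was below it on all 4 arrays, by 1.50 to 3.44 on the log2 scale. An exact sign-flip test of such a difference over 4 arrays cannot give a p below 0.125. The 3 probes of these genes thus shared a direction and differed in size, and without moderation of the variance the probe of all 3 genes was no longer called (adjusted p = 0.0777).

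Without moderation of the variance 1 of the 8 calls among probes of several SCPL genes was left, that of scpl36 and scpl37, and the probes of scpl30 and scpl31 (adjusted p = 0.0679) and of scpl47, scpl48 and scpl50 (0.0921) were among those lost. The probe of scpl30 and scpl31 had log2 ratios of -0.82, -1.20, -1.39 and -1.71, with a mean of -1.28 ± 0.16 (SE, n = 4 arrays, limma adjusted p = 0.00605). The probe of scpl30, scpl31 and SCPL32 was at -1.54, -1.88, -0.46 and -0.92, with a mean of -1.20 ± 0.25 (SE, n = 4 arrays, limma adjusted p = 0.0288). The probe naming SCPL32 alone was above both on all 4 arrays. It exceeded the first by 1.41 ± 0.45 and the second by 1.32 ± 0.76 on the log2 scale (SD, n = 4 arrays). The call of the second probe was lost without array 1 (limma adjusted p = 0.116), without array 2 (0.0822) and with limit values kept (0.0542).

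For SCPL45 and scpl46, 2 probes listed the same pair and disagreed. The first had log2 ratios of -1.97, -1.67, -0.97 and -0.57, all below 0, with a mean of -1.30 ± 0.25 (SE, n = 4 arrays, limma adjusted p = 0.0235). The second had 0.38, 0.75, -0.08 and 0.26, mostly above 0, with a mean of 0.33 ± 0.15 (SE, n = 4 arrays, limma adjusted p = 0.183). The first was below the second on every array, with a mean difference of -1.62 ± 0.88 (SD, n = 4 arrays). The call of the first was lost without array 1 (limma adjusted p = 0.0775) and without array 2 (0.0890).

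The probe of scpl47, scpl48 and scpl50 was at -1.15, -1.85, -1.87 and -0.77. All arrays were below 0, and the mean was -1.41 ± 0.22 (SE, n = 4 arrays, limma adjusted p = 0.0119). The probe of scpl39 and scpl40 was at -0.94, -0.82, -1.11 and -0.38, with a mean of -0.81 ± 0.14 (SE, n = 4 arrays, limma adjusted p = 0.0181). This call was lost without array 1 (0.0870), array 2 (0.0704) or array 3 (0.0525). A probe that adds the gene AT3G56540 to this pair was lower too, at -1.93, -1.45, -1.57 and -0.55, with a mean of -1.37 ± 0.23 (SE, n = 4 arrays, limma adjusted p = 0.0157).

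The increase was on the probe of SCPL34 and scpl35, at 0.87, 1.09, 0.43 and 0.92. Array 3 was lowest, and all arrays were above 0. The mean was 0.83 ± 0.13 (SE, n = 4 arrays, limma adjusted p = 0.0140), and the call was lost without array 1 (limma adjusted p = 0.0708) or array 2 (0.0561). The share of measured empty spots above it was 41.8%, 23.5%, 20.8% and 44.7% on arrays 1 to 4, and the part of background signal in its ratio was not tested. The probe of scpl33, SCPL34 and scpl35 was at 0.22, 0.32, 0.09 and -0.48, with a mean of 0.03 ± 0.16 (SE) that did not pass the test.

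Around SCPL43, the probe of scpl41 and scpl42 had log2 ratios of 0.41, 0.06, 0.52 and 0.65, and the probe of scpl41, scpl42, SCPL43 and scpl44 had 0.66, 0.45, 0.45 and 0.15. Every array of both was above 0, and neither passed the threshold, with limma adjusted p of 0.0771 and 0.0562. Without array 4 the second was called (limma adjusted p = 0.0384). SCPL43 exceeded the probe of all 4 genes on each array, by 0.58 ± 0.30 on average (SD, n = 4 arrays). The 4 remaining probes had means from 0.0025 to 0.35 and were not called. Of these, 2 listed scpl20 and scpl21, and 2 listed scpl26 and SCPL27 with either scpl28 or scpl29.

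Grouped by the genes that share probes, the 27 probes listing SCPL genes only fell into 13 sets holding 30 genes. A called probe was found in 8 of the 13 sets, lower in 6 and higher in 2, and 5 sets had none. A set with more probes has more chances of a call. No share over sets of other genes was counted, so these counts have no background beside them. Of the 7 sets read by several such probes, the set of scpl36, scpl37 and scpl38 was the 1 in which every probe was called. The pair of scpl39 and scpl40 has 1 such probe, and both it and the probe that adds AT3G56540 were called lower.

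For most genes with a linked role, the platform annotation held no probe naming them alone. Of 17 genes of the route from phenylalanine to sinapate esters, whose glucose esters feed the SCPL acyltransferases, 1 was measured by name. This was UGT84A1, which attaches glucose to hydroxycinnamic acids, and its log2 ratios were -2.50, -2.66, -5.04 and -0.29. All arrays were below 0, but they differed more among themselves than those of any SCPL gene, with an SD of 1.94. The mean of -2.62 ± 0.72 (SE, n = 4 arrays) did not pass the threshold (limma adjusted p = 0.0575). It did without array 4, at -3.40 (limma adjusted p = 0.0179), and with array weights (0.0245). Without array 3 the mean was -1.82 (limma adjusted p = 0.0853), and over all alternatives the adjusted p ran from 0.0179 to 0.196. BRS1 and SNG1, the 2 serine carboxypeptidases under another symbol, and 7 genes of brassinosteroid perception were measured by 0 probes naming them alone.

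Named genes outside the family with the most similar values were sought for the lowest and the highest member, over 5134 genes measured on all 4 arrays. Nearest to scpl38 were RALFL25, GH9A4 and AT3G12685, with root mean square differences of 0.23, 0.26 and 0.27 on the log2 scale and means of -3.81, -3.64 and -3.85. For all of them, as for scpl38, array 3 was lowest and array 4 highest, an order that choosing them by similarity over these arrays favours. Across all genes and probes called lower, the medians on arrays 1 to 4 were -1.35, -1.49, -1.52 and -1.08, the same order of arrays at both ends. Nearest to SCPL43 were GH3.1, AT1G66830 and AT1G56710, with differences of 0.08, 0.10 and 0.13 and means of 0.97, 1.0 and 1.01.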

How the data were processed

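Both genotypes were hybridised together on 4 arrays. Per the labels, the authors processed and normalized the log2 ratio of the channels of each array as in an earlier publication. No source used here names the scanner, background correction or normalization method. The log2 scale was read from the values, which stopped at 100-fold on either side. Array medians as deposited were -0.11, 0.12, -0.10 and 0.08, so the arrays were not centred on the median of the gene probes used here. Any other upstream centring is unknown. Read as apetala3 over wild type, the medians of arrays 1 to 4 were all above 0, at 0.11, 0.12, 0.10 and 0.08.

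Values of arrays 1 and 3 were multiplied by -1. Before that, arrays of opposite orientation correlated across probes at Pearson r of -0.82 to -0.62, and those of the same orientation at 0.68 and 0.80. Ratios at the 100-fold limit were left out. Control spots (35) and empty spots (424) were left out. Of 26474 gene probes, 5784 had 1 gene in the platform annotation (5756 matched by gene ID to the RefSeq table of assembly TAIR10.1), 7497 several and 13193 none. Probes of 1 gene were averaged per array. All genes and unnamed probes with values on at least 3 arrays were fitted with limma 3.58.1 (lmFit, intercept only, eBayes) in R 4.3.3, adjusted over all 25588. The procedure was also run on simulated data with independent errors and no array-wide shift or channel effect. That run therefore does not test how such features of these arrays act on the calls. Errors are limma's SE unless an SD is given.

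The members, lists and tests were chosen with earlier results of these data known. Every member was named, with the listed genes measured by name and the 3 genes nearest in value to the lowest and the highest member. Alternatives were leaving out each array, centring, a constant channel effect, array weights, unmoderated and robust variances, limit values kept, complete measurement, single probes and stricter thresholds.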

Additional observations from a re-analysis of the deposited data

How the results depend on the processing

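No paired analysis was possible because the arrays form 1 group, beyond the ratio within each array, which already pairs the genotypes. Of the 10 SCPL genes, 3 were called without each array in turn and with array weights, a channel effect, robust variances or limit values kept. The count was 4 with centring and with genes measured on all 4 arrays, where scpl29 was added (limma adjusted p = 0.0497 for the second), and 2 without variance moderation and at an adjusted p under 0.01. Calls of scpl38 and SCPL43 held in all 11 alternative fits. The median of the 10 genes was -0.0093 with each array centred on its median, a shift that follows from the array medians. The 8 calls among probes of several SCPL genes became 4 to 9 without 1 array (4 without array 1 or array 2), 3 at an adjusted p under 0.01 and 1 without variance moderation. UGT84A1 counted as 1 call with array weights, and 0 to 1 calls without 1 array. Over 27 single genes and probes and 299 comparisons with an alternative, 275 kept their side of the threshold, 18 lost a call, 6 gained one and 0 reversed. Only the 3 genes and 8 probes called in the main fit could lose a call. The 275 include genes and probes called in no fit, so that number does not measure how firmly the calls held. Over all genes and probes, 4737 were called, and 1818 to 5028 without 1 array (1818, 2085 and 2793 without arrays 1, 2 and 3). There were 1265 without variance moderation, 1645 at an adjusted p under 0.01 and 1904 at least 2-fold. The main split was 2158 higher and 2579 lower. Centring gave 1065 higher and 2905 lower, limit values kept 1430 and 2109, and array weights 3751 and 3056. Without array 1 there were 342 higher and 1476 lower, without array 2 495 and 1590, and without array 3 868 and 1925, so the background share of higher calls depends on the arrays used. The cause of the other shifts was not tested. Signal over background could not be read from ratios.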

Other observations

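The 49 SCPL genes of the RefSeq table include 12 pairs of direct neighbours among protein-coding genes, and most of these stretches, such as scpl6, scpl3, scpl5, scpl2 and scpl4 on chromosome 1, were on no listed probe. The probe that lists scpl28 together with AT2G35765 had a mean log2 ratio of 0.32 ± 0.13 (SE, n = 4 arrays) and was not called (limma adjusted p = 0.132).

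Among 27 genes and probes, 0 had 1 array whose gap to the other 3 exceeded Dixon's 95% critical value, where chance gives about 1.35.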
